A study of Mus musculus with 36 samples.

Results

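The miR-17/miR-92 cluster is a group of 6 microRNA (miRNA) hairpins cut from the transcript of the Mir17hg gene. Described here are the guide arms of these hairpins, mmu-miR-17-5p, mmu-miR-18a-5p, mmu-miR-19a-3p, mmu-miR-20a-5p, mmu-miR-19b-3p and mmu-miR-92a-3p (below without the prefix mmu, for mouse), which were taken by name as 6 of the 469 miRNAs in the deposited table. The cells were B3, a mouse pre-B cell line. The Ikaros line carried a retroviral construct in which the transcription factor Ikaros, tagged with HA, is fused to the hormone-binding domain ERt2, so that 4-hydroxy-tamoxifen (4-OHT) moves the fusion protein into the nucleus. The control line carried ERt2 without Ikaros in the same vector. Both lines were sorted on the GFP of the vector, so each is a pool of cells and not a clone. The labels give 0.5 uM 4-OHT for all samples, whereas by the methods of the study the 0 h samples had received none. Small RNA was sequenced at 0, 2, 6, 12, 18 and 24 h, with 3 samples for each line and time and 36 samples in all.

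A miRNA hairpin has a 5' and a 3' arm, and each can give a short mature miRNA. The arm that is mostly loaded into Argonaute is the guide, and its bases 2 to 8, the seed, pair with target messenger RNAs. Mir17hg is a target gene of the transcription factor Myc, and its miRNAs are known for promoting proliferation, for survival at the pro-B to pre-B passage and as an oncogenic group in B cell lymphoma. The comparison of the lines asks how each guide arm moved when Ikaros, which stops the cycling of pre-B cells, became nuclear.

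The mature sequences show which members share a seed and which differ by only a base or a few. They are given 5' to 3' from RefSeq (GRCm38.p6), in the order of the hairpins along the gene, with the seed in capitals.
miR-17-5p: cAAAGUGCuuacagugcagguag
miR-18a-5p: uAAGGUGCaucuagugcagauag
miR-19a-3p: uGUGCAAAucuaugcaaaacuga
miR-20a-5p: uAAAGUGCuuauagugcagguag
miR-19b-3p: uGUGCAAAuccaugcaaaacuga
miR-92a-3p: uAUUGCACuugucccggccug
miR-106a-5p: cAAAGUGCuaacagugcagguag
miR-92a-1-5p: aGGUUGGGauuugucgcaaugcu

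The last pair of sequences belongs to no member. miR-106a-5p is shown because it is the closest relative of miR-17-5p, and miR-92a-1-5p because it is the partner arm in the hairpin of miR-92a-3p. The 6 members have 4 seeds. miR-17-5p and miR-20a-5p shared AAAGUGC, miR-19a-3p and miR-19b-3p shared GUGCAAA, and miR-18a-5p (AAGGUGC) and miR-92a-3p (AUUGCAC) had a seed that no other member had. Counted from 1 at the 5' end and with the base of the first-named miRNA first, miR-19a-3p and miR-19b-3p differed only by U11C, and miR-17-5p and miR-20a-5p by C1U and C12U. Outside the cluster, miR-17-5p and miR-106a-5p differed only by U10A, miR-18a-5p and miR-18b-5p by A18U and A20U, and miR-92a-3p and miR-92b-3p by U10C and G21C. How reads that match more than one of these sequences were assigned is not given in the sources used here.

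On GRCm38 the members lie on the plus strand of chromosome 14. miR-17-5p is at chr14:115043684-115043706, miR-18a-5p at chr14:115043867-115043889 and miR-19a-3p at chr14:115044048-115044070. Farther along lie miR-20a-5p at chr14:115044183-115044205, miR-19b-3p at chr14:115044358-115044380 and miR-92a-3p at chr14:115044476-115044496. The 6 hairpins span 836 nt and are separated by gaps of 35 to 96 nt. All 6 lie within an exon of Mir17hg (chr14:115042879-115046727), which GENCODE vM21 lists as a long intergenic noncoding RNA with 1 transcript. A further hairpin makes the same mature sequence as miR-19b-3p, and another that of miR-92a-3p, both in the related Mir106a-363 cluster, so their values can hold RNA from both places.

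The values are log2 expression as normalised by the authors. They ranged from 0.09 to 19.30 over the table, the sample medians from 3.70 to 4.15, and the median SD within groups was 0.36. All 5 miRNAs listed as high in blood cells were in the table, at very different levels. miR-181a-5p was at 17.53 to 18.71, miR-142-5p at 13.72 to 15.33, miR-142-3p at 12.08 to 14.59 and miR-155-5p at 10.16 to 11.17. miR-150-5p was low, at 3.07 to 4.62. Of 5 miRNAs listed for liver, muscle and neurons, 1 was present, the neuronal miR-9-5p, at 12.69 to 13.87. The table has no counts, so sequencing depth is unknown and no counting interval is given. Most control samples of the times from 2 h to 18 h were run in a second sequencing batch and nearly all Ikaros samples in the first, so that line and sequencing batch cannot be told apart at these times other than by the correction the authors applied. By the methods of the study, some replicates were sequenced in both batches, and the correction used these technical replicates to keep batch and condition apart. The samples of 0 h and 24 h were mostly run together. Nothing in the labels says that the samples of a group were independent beyond their separate culture batches.

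The members stood at very different levels although each has a hairpin in the same transcript. miR-20a-5p was the highest, with a mean of 13.10 over the 36 samples (rank 19 of 469), followed by miR-19b-3p at 12.53 (rank 25), miR-92a-3p at 12.48 (rank 26), miR-18a-5p at 11.68 (rank 34), miR-19a-3p at 10.20 (rank 63) and miR-17-5p at 6.79 (rank 130). The mature forms are 21 to 23 nt long, so these log2 levels are per molecule of near-equal length, but they were not calibrated between miRNAs. miR-19b-3p and miR-92a-3p could not be ordered, since their mean difference of 0.05 was far below the SD of that difference within groups, 2.00. The same holds for miR-20a-5p over miR-19b-3p, with a mean difference of 0.57 and an SD of 1.5. miR-17-5p lay on average 6.31 below miR-20a-5p, its relative of the same seed, and the gap in single samples was never smaller than 5.47 (SD of the difference 0.47). The assignment of reads that match both miR-17-5p and miR-106a-5p is not given, so this gap in values need not be that in the cells. On the linear scale the 6 members together held a median of 1.99% of the summed expression of a control sample (range 1.43 to 5.33%) and of 1.67% of an Ikaros sample (range 1.14 to 6.22%).

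The name guide arm did not match the deposited values in all hairpins. miR-17-5p had lower values than its partner arm miR-17-3p, which had a mean of 7.39. How reads that match both miR-17-5p and the near-identical miR-106a-5p (mean 5.39) were assigned is not given. The values were also not calibrated between miRNAs, so which arm of this hairpin was more abundant in the cells cannot be told. In the hairpin of miR-92a-3p the order of the means depended on line and time. In the control line at 0 h the arms were nearly equal, at 12.72 for the guide arm and 12.70 for the partner arm miR-92a-1-5p. At 24 h the guide arm of this line had a mean of 12.34 and the partner arm one of 13.06. In the Ikaros line the guide arm had the higher mean at all 6 times, with 11.93 against 9.77 at 24 h. In the other 4 hairpins the guide arm was higher, at 11.68 against 6.11 for miR-18a-3p, 10.20 against 4.11 for miR-19a-5p, 13.10 against 4.19 for miR-20a-3p and 12.53 against 5.60 for miR-19b-1-5p.

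The spread between replicates was large in a pair of members and moderate in the rest. Of all 469 miRNAs, miR-19a-3p had the largest SD within groups, 1.81, and miR-19b-3p the next, 1.73. The other members had SDs of 0.45 (miR-17-5p), 0.35 (miR-92a-3p, rank 247), 0.35 (miR-18a-5p, rank 258) and 0.30 (miR-20a-5p, rank 332). The largest SD among miRNAs outside the cluster was 1.44, in miR-221-5p.

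**Figure D1:**
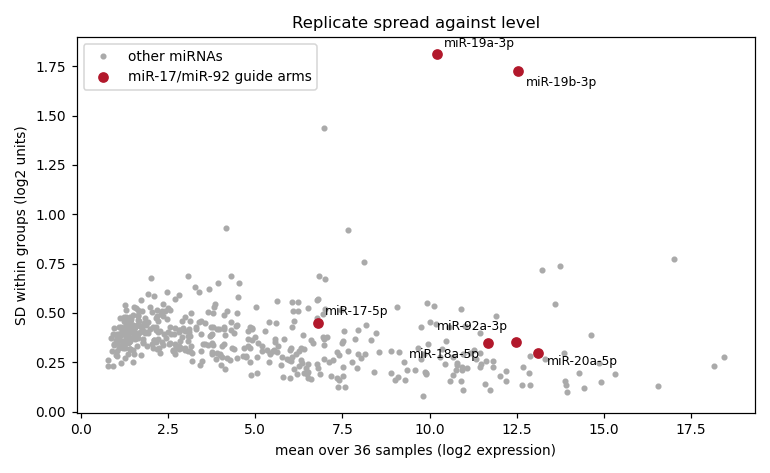
SD within groups (log2 units, y axis) against the mean over 36 samples (log2 expression, x axis) for the 469 miRNAs, one point each. miR-19a-3p (1.81) and miR-19b-3p (1.73) sit above all other miRNAs, whereas the other 4 members lie between 0.30 and 0.45, among the bulk.

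The pair with the seed GUGCAAA moved as a unit from sample to sample. In the Ikaros line at 12 h, replicates 1, 2 and 4 gave 7.16, 8.82 and 14.26 for miR-19a-3p and 9.52, 11.34 and 16.36 for miR-19b-3p. In the control line at 2 h they gave 10.11, 8.69 and 13.53 for miR-19a-3p and 12.43, 10.93 and 15.59 for miR-19b-3p. The replicates of each of these groups thus differed by more than any line difference described below. The difference between both miRNAs stayed between -2.62 and -2.05 in all 36 samples (mean -2.33, SD within groups 0.15), and the correlation of their values was r = 0.997 over 36 samples. Both points share the library and its normalisation, and the sequences differ by the single base given above.

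The other members followed the same samples to different degrees. When each sample was expressed as its deviation from the mean of its group, the correlation with miR-19b-3p was 0.79 for miR-20a-5p, 0.64 for miR-18a-5p, 0.38 for miR-17-5p and -0.72 for miR-92a-3p (36 samples in 12 groups, a description). miR-20a-5p and miR-18a-5p deviated together (r = 0.74), and the SD of their difference within groups was 0.24, lower than that of either miRNA. miR-92a-3p tended to be low in the samples in which miR-19a-3p, miR-19b-3p, miR-20a-5p and miR-18a-5p were high. Each of these has a hairpin in Mir17hg, but miR-19b-3p and miR-92a-3p can also hold RNA of the Mir106a-363 cluster. The deviations within groups were shared with miRNAs outside the cluster. The first principal component of the within-group deviations of 441 miRNAs that belong to neither this cluster nor its relatives held 31.3% of their variance and correlated within groups with miR-19a-3p (r = 0.96), miR-19b-3p (0.96), miR-20a-5p (0.80), miR-18a-5p (0.56), miR-17-5p (0.35) and miR-92a-3p (-0.72). The GC content of the mature sequences was 34.8% for miR-19a-3p, 39.1% for miR-19b-3p and miR-20a-5p, and 43.5% for miR-18a-5p. It was 47.8% for miR-17-5p and 57.1% for miR-92a-3p. The deposited values had been corrected for GC content by the authors. The part of GC content or of other technical sources in this axis was not tested.

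**Figure D2:**
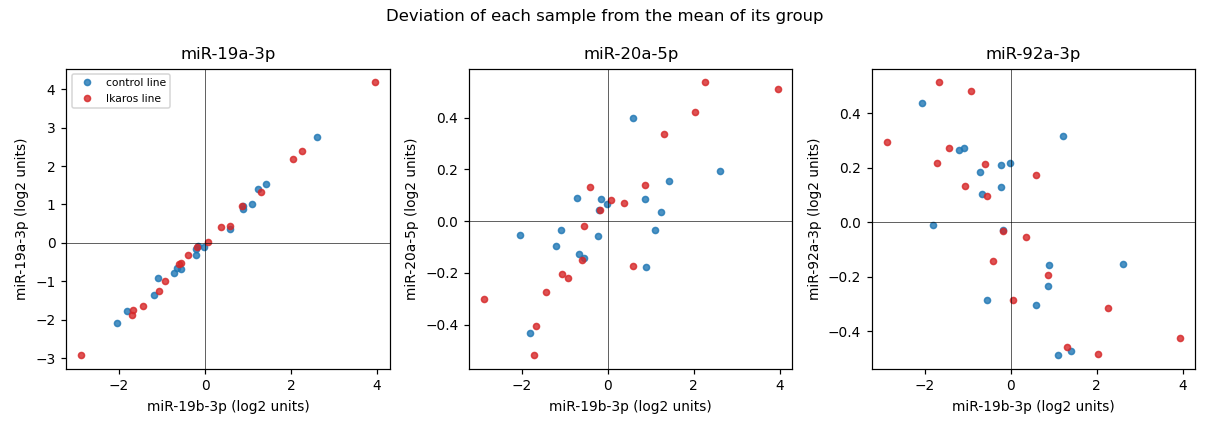
Deviation of each of the 36 samples from the mean of its group (log2 units) for miR-19b-3p on the x axis and for miR-19a-3p, miR-20a-5p and miR-92a-3p on the y axes, blue for the control and red for the Ikaros line. miR-19a-3p lies on a line with miR-19b-3p (r = 0.998), miR-20a-5p rises with it (0.79) on a much smaller scale, and miR-92a-3p goes the opposite way (-0.72).

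4 libraries deviated most from their groups over all miRNAs, replicate 4 of the Ikaros line at 12 h (root mean square deviation 0.57), replicate 2 of the control line at 12 h (0.52), replicate 4 of the Ikaros line at 2 h (0.47) and replicate 1 of the Ikaros line at 12 h (0.46). In these, miR-19b-3p lay 3.95, 1.23, 2.26 and -2.88 from its group mean. Values without these 4 libraries are given below where they change a call.

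The miRNAs with the most similar course over the 36 samples, by Pearson correlation of the log2 values and excluding the members, differed between the members. For miR-19a-3p and miR-19b-3p they were miR-186-5p (r = 0.94 with both), let-7j (0.90 and 0.91) and miR-142-3p (0.90 with both). For miR-20a-5p they were miR-669f-5p (0.86), miR-466c-5p (0.84) and miR-34b-5p (0.83), and for miR-18a-5p they were miR-466c-5p (0.81), miR-669f-5p (0.77) and miR-23a-3p (0.74). For miR-92a-3p they were miR-1947-5p (0.87), miR-181c-3p (0.79) and miR-671-3p (0.78). For miR-17-5p they were miR-106a-5p (0.86), miR-101a-3p (0.73) and miR-467d-3p (0.66). Within groups, miR-17-5p and miR-106a-5p, which differ by 1 base, correlated at 0.93, against 0.26 between miR-17-5p and miR-20a-5p.

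Before 18 h no member passed the test between the lines. By limma with Benjamini-Hochberg adjustment over the 469 miRNAs, 0 of 6 members passed an adjusted p of 0.05 at 0, 2, 6 or 12 h, and 0 passed an unadjusted p of 0.05 at these times, when 8.53%, 11.3%, 15.1% and 21.7% of all miRNAs passed the adjusted threshold. At 18 h, 2 of 6 members were lower in the Ikaros line, against 29.9% of all miRNAs in either direction and 16.8% lower. At 24 h, 1 of 6 was lower, against 39.9% in either direction and 22% lower. No member was higher at any time. The median line difference of the 6 members was -0.82 at 18 h and -0.48 at 24 h, beside -0.01 and -0.07 over all miRNAs.

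**Figure D3:**
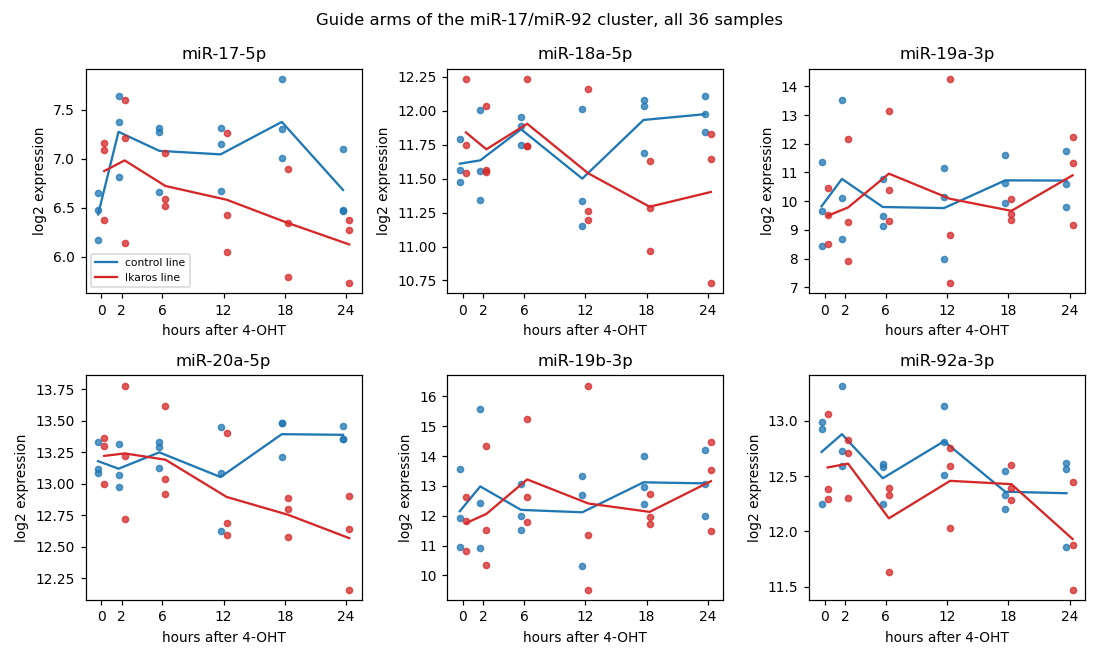
Log2 expression (y axis) of the 6 guide arms against hours after 4-OHT (x axis), points for samples and lines for the means of 3, blue for the control and red for the Ikaros line. miR-20a-5p, miR-18a-5p and miR-17-5p separate at 18 h and 24 h, with all Ikaros samples below all control samples, whereas the groups of miR-19a-3p, miR-19b-3p and miR-92a-3p overlap at all 6 times.

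miR-20a-5p, the most abundant member and a close relative of miR-17-5p, was the member with the clearest difference. At 0 h, replicates 1, 2 and 4 gave 13.33, 13.12 and 13.08 in the control line and 13.30, 13.36 and 13.00 in the Ikaros line. At 18 h they gave 13.22, 13.48 and 13.48 in the control line and 12.89, 12.58 and 12.80 in the Ikaros line. At 24 h the control samples were at 13.35, 13.46 and 13.35 (mean 13.39 ± 0.06, SD, n = 3) and the Ikaros samples at 12.91, 12.64 and 12.16 (12.57 ± 0.38). The groups overlapped at 0 h and were apart at 18 h and 24 h, and the Ikaros sample was the lower in 3 of 3 same-numbered pairs at both late times.

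The line difference of miR-20a-5p was -0.64 (SE 0.24, limma adjusted p = 0.0393) at 18 h and -0.82 (SE 0.24, adjusted p = 0.00656, 95% interval -1.30 to -0.34) at 24 h. Fitted as a straight line, it fell by 0.70 (SE 0.21, adjusted p = 0.00877) in the Ikaros line over the 22 h between 2 h and 24 h. The corresponding change in the control line was 0.27 (SE 0.21, adjusted p = 0.713), and the lines differed in this change by -0.97 (SE 0.29, adjusted p = 0.0165). The Ikaros samples of 2 h to 24 h were mostly in the same sequencing batch, whereas the control samples of 24 h were mostly in another batch than those of 2 h to 18 h, and the part of the batch in the difference between the changes was not tested. Beyond the difference at 0 h, the 24 h difference was -0.86 (SE 0.33, adjusted p = 0.0921), which passed without the 4 deviant libraries (0.0344), with only the groups compared (0.0292), under quantile normalization (-0.94, 0.0183) and with the deviation axis as covariate (-0.88, 0.00206). The axis was computed from these same samples and is no independent support. As a covariate it was scored on values centred over all 36 samples, so it can also hold differences between lines and times. With it, the calls of this comparison over all miRNAs rose from 58 to 114. Subtracting the median of each sample shifted the median over all miRNAs of the 24 h difference from -0.07 to 0.17, and gave miR-20a-5p -0.58 with an adjusted p of 0.0501 at 24 h and -0.47 with 0.131 at 18 h. Leaving out replicate 2 also ended the call at 24 h (-0.82, adjusted p = 0.11) and at 18 h (-0.51, 0.405), and leaving out replicate 4 or the variance trend ended that at 18 h (-0.61, 0.0546, and -0.64, 0.0506). The fall in the Ikaros line was -0.77 (adjusted p = 0.0982) without replicate 2 and -0.38 (0.162) without replicate 4, and its difference from the control line was then -0.94 (0.214) and -0.73 (0.104). Fitted on the Ikaros groups alone the fall had an adjusted p of 0.0537. In RNA from a pool of cells, fewer cells with a miRNA and less of it per cell cannot be told apart.

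miR-17-5p, after which the cluster is named, was lower in the Ikaros line at 18 h. The control samples were at 7.30, 7.82 and 7.01 (mean 7.38 ± 0.41, SD, n = 3) and the Ikaros samples at 5.79, 6.35 and 6.90 (6.35 ± 0.55), so that the groups were apart by little. The difference was -1.03 (SE 0.35, limma adjusted p = 0.0227), without replicate 1 it was -0.79 (adjusted p = 0.127) and without replicate 2 -0.81 (0.314), and with the sample medians subtracted it was -0.86 (0.0765). At 24 h the control samples were at 6.48, 7.11 and 6.47 and the Ikaros samples at 5.74, 6.37 and 6.27. The groups were again apart, but the difference of -0.56 (95% interval -1.26 to 0.15, adjusted p = 0.205) did not pass.

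In the Ikaros line miR-17-5p fell by 0.82 (SE 0.30, limma adjusted p = 0.0355) between 2 h and 24 h, with group means of 6.98, 6.72, 6.58, 6.35 and 6.13 at the 5 successive times. This call was lost with the sample medians subtracted (-0.68, adjusted p = 0.108), under quantile normalization (-0.59, 0.144), without the 4 deviant libraries (-0.59, 0.12), without replicate 2 (-0.76, 0.246), without replicate 4 (-0.78, 0.069) and with only the groups compared (-0.82, 0.0836). In the control line the change was -0.35 (SE 0.30, adjusted p = 0.719), and the difference of -0.47 between the lines (95% interval -1.34 to 0.41, adjusted p = 0.456) did not pass.

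miR-18a-5p, the member with the seed AAGGUGC, was lower in all Ikaros samples at both late times but did not pass. At 18 h the control samples were at 11.69, 12.08 and 12.03 and the Ikaros samples at 11.28, 10.97 and 11.63, and at 24 h they were at 12.11, 11.98 and 11.84 against 11.83, 11.64 and 10.73. The groups were apart at both times, and the Ikaros sample was the lower in 3 of 3 pairs at both. The differences were -0.64 (SE 0.27, limma adjusted p = 0.0709) and -0.57 (SE 0.27, adjusted p = 0.0906). The difference at 18 h passed in 4 of 11 alternatives, without replicate 4 (-0.76, adjusted p = 0.0189), with only the groups compared (0.0168), without the 4 deviant libraries (0.049999) and with the deviation axis as covariate (0.0266), and that at 24 h passed in 2, under quantile normalization (-0.60, 0.0477) and with the axis (-0.62, 0.0202). Groups that did not overlap, with the Ikaros line lower, were found for 3 of 6 members at 18 h, beside 25.4% of all miRNAs, and for the same 3 members at 24 h, beside 30.3%.

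miR-19a-3p and miR-19b-3p, the members with the seed GUGCAAA, did not pass in any comparison of the lines. At 18 h the differences were -1.06 and -0.99 (limma adjusted p = 0.596 and 0.606), with the Ikaros sample lower in 3 of 3 pairs, and both passed with only the groups compared (0.0193 and 0.0304). At 24 h the control samples of miR-19b-3p were at 14.19, 13.07 and 12.00 and the Ikaros samples at 14.46, 13.52 and 11.49. The line differences at 24 h were 0.18 for miR-19a-3p (95% interval -2.53 to 2.90) and 0.07 for miR-19b-3p (-2.52 to 2.66), so that differences of the size seen in miR-20a-5p lie well inside the intervals.

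miR-92a-3p, the member with the seed AUUGCAC, did not pass in any comparison of the lines. At 24 h it was at 11.86, 12.56 and 12.62 in the control line and at 11.47, 11.87 and 12.44 in the Ikaros line, and the groups overlapped. The difference was -0.41 (95% interval -0.97 to 0.14, limma adjusted p = 0.233). From 2 h to 24 h its fitted change was -0.40 (SE 0.24, adjusted p = 0.202) in the Ikaros line and -0.46 (SE 0.24, adjusted p = 0.578) in the control line, and these differed by 0.06 (95% interval -0.63 to 0.75).

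Over the whole course, 2 of 6 members, miR-20a-5p and miR-17-5p, fell along a straight line in the Ikaros line, against 34.8% of all miRNAs in either direction and 21.1% falling. In the control line 0 of 6 members and 0 of 469 miRNAs passed by limma, and 39 miRNAs but no member had an unadjusted p under 0.05. The change differed between the lines for 1 of 6 members, miR-20a-5p, against 22.2% of all miRNAs. Beyond the difference at 0 h, 0 of 6 members were lower and 0 higher at 24 h, against 6.61% and 5.76% of all miRNAs, and 2 members had an unadjusted p under 0.05. The interaction of line and time passed the F-test for 0 of 6 members, against 13% of all miRNAs, and 1 member had an unadjusted p under 0.05. The F-test over 2 h to 24 h passed for 0 of 6 members in the Ikaros line (1 at an unadjusted p under 0.05, background 20.5%) and for 0 of 6 in the control line (background 0.426%). Whether the shares of members differed from those of all miRNAs was not tested.

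Whether members of the cluster changed by unequal amounts was asked by setting each against miR-92a-3p in the same sample. In the ratio to miR-92a-3p, 0 of 5 members passed by limma at 24 h, at 24 h beyond 0 h, or in the change over 2 h to 24 h in the Ikaros line, against 23.5%, 1.92% and 16.5% of the other miRNAs, and 0 had an unadjusted p under 0.05. For miR-20a-5p the difference from miR-92a-3p was -0.40 at 24 h (95% interval -1.34 to 0.53) and -0.30 in the change (-1.12 to 0.52). These intervals hold both an equal change and a difference of 1 log2 unit.

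Both arms of a hairpin are cut from the same precursor, so the partner arms were set beside the guide arms. All 6 partner arms were lower in the Ikaros line at 24 h (22% of all miRNAs), 4 of 6 beyond the difference at 0 h (6.61%), and all 6 fell (21.1%) from 2 h to 24 h, by 0.55 (miR-17-3p), 0.73 (miR-18a-3p), 0.93 (miR-20a-3p), 0.94 (miR-19a-5p), 1.32 (miR-19b-1-5p) and 2.53 (miR-92a-1-5p). All 6 stayed below 0 in both comparisons under each of the 11 alternatives, where 4 to 6 of them passed, with 4 at 24 h when the sample medians were subtracted and 4 in the change without replicate 2. The widest contrast between the arms was in the last hairpin. It is not within 1 hairpin alone, since miR-92a-3p can also hold RNA of the Mir106a-363 cluster and miR-92a-1-5p has 1 hairpin. miR-92a-1-5p was at 13.16, 12.99 and 13.03 in the control line at 24 h and at 9.77, 10.02 and 9.51 in the Ikaros line, a difference of -3.29 (SE 0.17, limma adjusted p = 2e-15), while miR-92a-3p differed by -0.41.

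**Figure D4:**
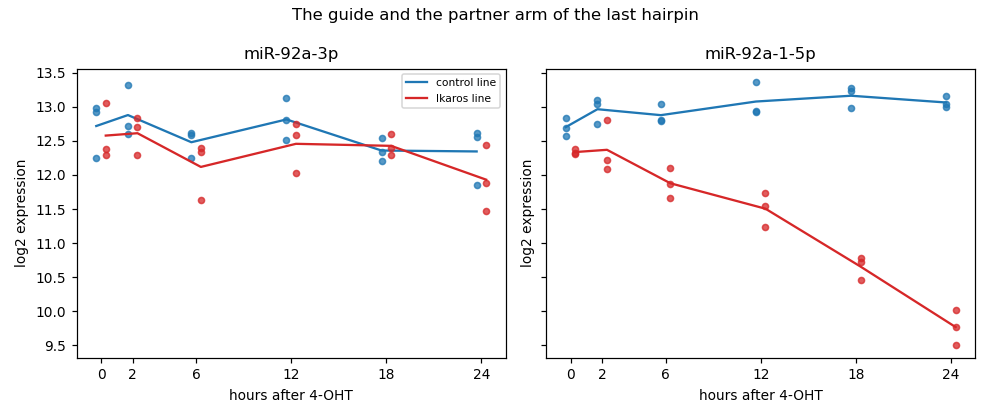
Log2 expression (y axis) of miR-92a-3p and of its partner arm miR-92a-1-5p against hours after 4-OHT (x axis), points for samples and lines for the means of 3, blue for the control and red for the Ikaros line. miR-92a-1-5p has means in the Ikaros line of 12.34 before 4-OHT and 9.77 after 24 h, whereas miR-92a-3p overlaps between the lines.

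The difference between the arms was itself fitted over the 131 hairpins with both arms in the table. At 24 h the guide arm was less reduced than the partner arm, relative to the control line, in 2 of 6 hairpins, by 2.88 for miR-92a-3p (SE 0.39, limma adjusted p = 4.8e-06) and by 0.85 for miR-20a-5p (SE 0.29, adjusted p = 0.0443), against 13.7% of hairpins in either direction. In hairpins outside the cluster the arm with the lower mean was subtracted from the other. The median over all 131 hairpins was then also above 0, at 0.23 at 24 h, 0.14 beyond 0 h and 0.12 in the Ikaros change. Without any 1 of the replicates the call of miR-20a-5p was lost, with adjusted p-values from 0.0859 to 0.325 and estimates from 0.81 to 0.93. For the other hairpins the difference between the arms was 0.19 (miR-17-5p, 95% interval -0.58 to 0.96), 0.05 (miR-18a-5p, -0.75 to 0.86), 1.24 (miR-19a-3p, -1.08 to 3.56) and 2.13 (miR-19b-3p, -0.22 to 4.48). That of miR-19b-3p did not pass by limma (adjusted p = 0.224), nor in 7 of 9 alternatives. Over the 9 its estimates were 1.81 to 2.34 and the lowest adjusted p was 0.00097. For miR-92a-3p the arms also differed beyond 0 h (2.66, SE 0.55, adjusted p = 0.0046, background 3.82%) and in the change over 2 h to 24 h in the Ikaros line (2.13, SE 0.34, adjusted p = 3.5e-05, background 17.6%). Beyond 0 h this call was lost narrowly without replicate 1 (2.66, adjusted p = 0.0513) and without replicate 2 (2.84, 0.059). For miR-19b-3p the corresponding estimates were 2.31 (adjusted p = 0.603) and 1.71 (0.261). They passed with the axis covariate (2.21, 0.00808, and 1.45, 0.00294), and the change also without replicate 4 (3.14, 0.0235) and without the 4 deviant libraries (2.45, 0.0292). A difference between these hairpins was not tested. miR-92a-3p and miR-19b-3p can hold RNA of another hairpin, unlike their partner arms, so their arm differences need not come from 1 precursor alone.

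**Figure D5:**
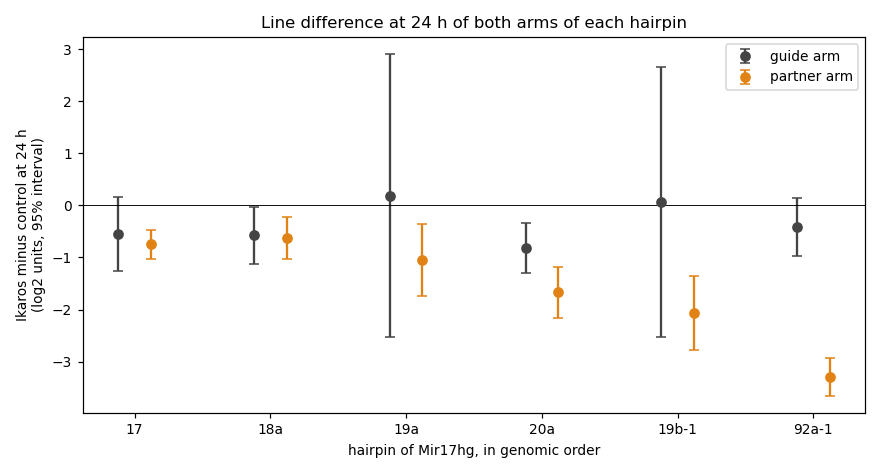
Ikaros minus control at 24 h (log2 units, y axis) for the guide arm (grey) and the partner arm (orange) of the 6 hairpins in genomic order (x axis), with limma estimates as points and 95% intervals as bars. The arms nearly coincide in the first hairpins, with -0.56 and -0.74 for miR-17-5p and miR-17-3p, and are far apart in the last, with -0.41 and -3.29.

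Other miRNAs with the seeds of the members did not share one direction. With the seed AAAGUGC, the line differences at 24 h beside those of miR-20a-5p (-0.82) and miR-17-5p (-0.56) were -1.17 for miR-20b-5p and -0.93 for miR-106a-5p, both lower by limma (adjusted p = 1.2e-05 and 0.0349), whereas miR-93-5p was higher by 0.71 (adjusted p = 1.1e-05) and miR-106b-5p, at 0.67, did not pass (0.105). With the seed AUUGCAC, miR-363-3p was lower by 1.05 (adjusted p = 8.6e-05) and miR-25-3p higher by 0.65 (0.00203), miR-92b-3p was lower by 0.99 (0.00237) and miR-32-5p, at -0.18, did not pass (0.683), beside -0.41 for miR-92a-3p. With the seed AAGGUGC, miR-18b-5p differed by -1.28 (adjusted p = 0.000342), beside -0.57 for miR-18a-5p.

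Grouped by cluster, the relatives differed in direction. Of 10 arms of the Mir106a-363 cluster on the X chromosome, 10 were lower in the Ikaros line at 24 h (22% of all miRNAs), but 6 of the 10 were already lower at 0 h (4.05%), when no member of the miR-17/miR-92 cluster passed. Leaving out 1 replicate left 0 to 2 of these 6 calls at 0 h, while all 10 arms remained below 0. Beyond the difference at 0 h, 0 of the 10 passed at 24 h, and 2 had an unadjusted p under 0.05. Of 6 arms of the Mir106b-25 cluster, 4 were higher at 24 h (17.9% of all miRNAs), 0 at 0 h, and 1 at 24 h beyond 0 h (5.76%).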

How the data were processed

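The members and all lists were chosen with earlier results of these data known. The deposited values are log2 expression of 469 miRNAs in 36 samples, 3 for each of 12 groups of line and time as labelled (replicates 1, 2 and 4). By the methods of the study, the authors aligned reads with Novoalign to miRBase, counted them with multiBamCov of bedtools, filtered low CPM, corrected GC content with cqn, normalised by TMM, removed the batch of sequencing by ComBat and took the mean of technical replicates. Versions are not given in the sources used here. The correction sets how much of a line difference remains at 2 h to 18 h. All tests were made with limma 3.58.1 in R 4.3.3 on the values as deposited, with 12 group means, eBayes with a trend, and Benjamini-Hochberg adjustment over all features of a table (469 miRNAs, 131 hairpins for the difference between arms, 468 ratios to miR-92a-3p), two-sided, at 0.05. The fit was run on simulated data with independent noise for each miRNA and sample. These had no shared deviations and no sequencing batch, so they cannot tell how many false calls such sources give here. Linear changes are contrasts of group means over 22 h. Same-numbered samples of both lines share a culture batch by the labels, and their deviations correlated across miRNAs at 0.06 (18 h) to 0.41 (6 h). The 6 guide arms and 6 partner arms were named by rule, relatives given by list, shared seed or at most 2 substitutions, and for each member the 3 most similar miRNAs. Alternatives were another scaling, a mean of at least 3 log2 units, only the groups compared, no trend, the culture batch as block, leaving out each replicate and, chosen after seeing the data, leaving out 4 libraries and the deviation axis as covariate. For this covariate the component of the within-group deviations was scored on values centred over all 36 samples. It can thus also hold differences between lines and times. Descriptions used Python 3.11.15, numpy 2.4.6, pandas 2.3.3 and matplotlib 3.10.9.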

Additional observations from a re-analysis of the deposited data

Results flagged for a closer look

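miR-20a-5p changed differently in the lines between 2 h and 24 h, with a tested difference of -0.97 between the fitted changes (SE 0.29, limma adjusted p = 0.0165). Its line by time interaction over all 6 times did not pass (adjusted p = 0.196).

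miR-19a-3p and miR-19b-3p were lower in the Ikaros sample of 3 of 3 same-numbered pairs at 18 h and higher in 3 of 3 pairs at 6 h. At 18 h the mean difference was -1.06 in miR-19a-3p and -0.99 in miR-19b-3p. The difference between these 2 times was not tested on its own, and the interaction over all 6 times had adjusted p-values of 0.916 and 0.92.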

How the results depend on the processing

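Under a replicate block of culture batch, which pairs the samples of both lines, all 69 member values kept their direction and call, with 2 members called at 18 h, 1 at 24 h and 2 for the change in the Ikaros line. Of the 693 member values under all alternatives, 601 kept direction and call, 26 lost a call, 23 gained one and 43 changed sign. The 601 include values that passed in neither fit. Among called values, miR-20a-5p at 24 h kept its call in 9 of 11 alternatives. miR-17-5p kept its call in 8 of 11 at 18 h and in 5 of 11 for the Ikaros change. With the sample medians subtracted, 0 members were called at 18 h, 0 at 24 h, 1 (miR-20a-5p) for the Ikaros change and 0 for its difference from the control change. Under quantile normalization 2 were called at 24 h (miR-18a-5p, miR-20a-5p), 1 at 24 h beyond 0 h, 1 for the interaction, 2 for the difference of the changes and 1 for the F-test in the Ikaros line, miR-20a-5p in each. With only the groups compared, 5 members (without miR-92a-3p) were called at 18 h, 1 beyond 0 h and 0 for the Ikaros change. Without the variance trend 1 (miR-17-5p) was called at 18 h. Leaving out 1 replicate gave 0 to 2 members at 18 h, 0 to 1 at 24 h, 0 to 2 for the Ikaros change, 0 to 1 for the difference of the changes and 0 to 4 for the F-test in the Ikaros line, and 1 hairpin at 24 h, 0 to 1 beyond 0 h and 1 to 2 in the change for the arms. Replicate 2 was the one whose removal gave 0 members at both late times. Without the 4 deviant libraries 3 members were called at 18 h (miR-18a-5p gained), 1 member was called beyond 0 h, 1 for the Ikaros change and 2 hairpins for the change of the arms. With the deviation axis as covariate 2 members were called at 2 h (miR-19a-3p, miR-19b-3p), 3 at 18 h, 2 at 24 h and 3 for the Ikaros change (miR-18a-5p gained in each), 1 beyond 0 h, 1 for the interaction, 2 for the difference of the changes, 1 for the F-test, and 3, 2 and 3 hairpins for the arms at 24 h, beyond 0 h and in the change. The cause was not tested in any of these. Subtracting the median of a sample cancels in arm differences and ratios, whereas quantile normalization need not. Arm differences and ratios were fitted under neither scaling. Over all miRNAs the calls from 0 h to 24 h numbered 40, 53, 71, 102, 140 and 187. Without replicate 2 they were 22, 18, 22, 34, 69 and 110, without replicate 1 they were 34 at 2 h, 34 at 6 h and 67 at 12 h, without replicate 4 they were 26 at 0 h, 34 at 2 h and 41 at 6 h, with only the groups compared 16 at 2 h and 18 at 12 h, and with the axis covariate 69, 96 and 154 at 0, 2 and 12 h. Leaving out 1 replicate turned 58 calls beyond 0 h into 12 to 31, 61 for the interaction into 11 to 28 and 104 for the difference of the changes into 45 to 66, and the axis covariate gave 114, 125 and 165. Without replicate 2 the Ikaros change had 81 calls instead of 163. The F-test in the Ikaros line called 96, with 44 and 32 without replicates 1 and 2, 56 with only the groups compared and 162 with the axis covariate, and that in the control line 2, with 0 to 6 under the alternatives. For the arms, 18, 5 and 23 hairpins at 24 h, beyond 0 h and in the change became 11, 0 and 9 without replicate 1, 8, 1 and 6 without replicate 2, and 32, 15 and 40 with the axis covariate, and the 5 beyond 0 h became 8 with a mean of at least 3 and 10 with only the groups compared. For the ratios to miR-92a-3p, 110 calls at 24 h became 26 and 70 without replicates 2 and 4 and 43 with only the groups compared, 9 beyond 0 h became 0 to 31 (21 with the replicate block), and 77 in the change became 40 and 33 without replicates 1 and 2 and 142 with the axis covariate.

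Signs that turned belonged to values that did not pass. Leaving out 1 replicate gave these ranges in log2 units. At 18 h the range was miR-92a-3p -0.032 to 0.18. At 24 h the ranges were miR-19b-3p -0.12 to 0.36, miR-19a-3p -0.078 to 0.60, miR-18a-5p minus partner -0.20 to 0.38, miR-18a-5p minus miR-92a-3p -0.41 to 0.23. Beyond 0 h the ranges were miR-19a-3p -0.39 to 1.11, miR-19b-3p -0.30 to 0.90, miR-18a-5p minus partner -0.47 to 0.076, miR-19a-3p minus miR-92a-3p -0.19 to 1.39, miR-19b-3p minus miR-92a-3p -0.11 to 1.18. For the Ikaros change the ranges were miR-19a-3p -0.50 to 1.85, miR-19b-3p -0.41 to 1.84, miR-19a-3p minus miR-92a-3p -0.19 to 2.53, miR-19b-3p minus miR-92a-3p -0.10 to 2.51, miR-18a-5p minus miR-92a-3p -0.44 to 0.29, miR-20a-5p minus miR-92a-3p -0.75 to 0.30. For the control change the ranges were miR-19a-3p -0.42 to 1.86, miR-19b-3p -0.32 to 2.00. For the difference of the changes the range was miR-92a-3p -0.040 to 0.17. With the deviation axis as covariate, the values were -0.20 (miR-19a-3p, at 24 h), -0.30 (miR-19b-3p, at 24 h), -0.57 (miR-19a-3p, control change), -0.41 (miR-19b-3p, control change), 0.59 (miR-19a-3p, difference of changes), 0.50 (miR-19b-3p, difference of changes), -0.040 (miR-92a-3p, difference of changes), -0.027 (miR-18a-5p minus partner, at 24 h). With median subtraction, the values were 0.099 (miR-19a-3p, difference of changes), 0.049 (miR-19b-3p, difference of changes). With quantile normalization, the values were 0.13 (miR-19a-3p, difference of changes), -0.088 (miR-92a-3p, difference of changes). Without the 4 most deviant libraries, the values were 0.81 (miR-19a-3p, difference of changes), 0.71 (miR-19b-3p, difference of changes), -0.065 (miR-92a-3p, difference of changes), 0.016 (miR-20a-5p minus miR-92a-3p, Ikaros change). Depth is unknown, and the precision rests on 3 samples a group.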
